A study of Homo sapiens with 4 samples.

Results

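Transcripts of 9 genes of the methionine cycle were followed in Daoy cells, an established human medulloblastoma line, after knockdown of PELP1. The genes encode the methionine adenosyltransferase subunits (MAT1A, MAT2A, MAT2B), S-adenosylhomocysteine hydrolase and its relatives (AHCY, AHCYL1, AHCYL2), methionine synthase and its reductase (MTR, MTRR), and cystathionine beta-synthase (CBS). They were taken by symbol from the 23228 gene rows of each count table, and all 9 passed the filter on low counts, among 14972 genes tested. The set was chosen by the measured difference of MAT1A between the 2 groups, its high counts with the PELP1 shRNA, and extended to the other genes of the cycle with results of the same comparison known. Differences between the groups in these 9 genes are therefore given as a description, with no test.

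The study holds 4 RNA-seq libraries. Daoy cells had been transduced with lentivirus and stably expressed either a control shRNA (2 libraries) or a PELP1 shRNA (2 libraries), so both groups carry an integrated shRNA vector. Whether each pair came from separate cultures or separate transductions is not given in the sources used here, and p-values rest on the spread within the pairs alone, which may be technical. The shRNA sequences were not analysed here, and a second PELP1 shRNA was not analysed here, so knockdown of PELP1 and any other action of that shRNA cannot be told apart.

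S-adenosylmethionine (SAM) is the methyl donor of most cellular methylation reactions, and methionine adenosyltransferases make it from methionine and ATP. Methyl transfer leaves S-adenosylhomocysteine, which inhibits methyltransferases and is split by AHCY into adenosine and homocysteine. Homocysteine is either methylated back to methionine by MTR, with folate and cobalamin, or passed by CBS into transsulfuration toward cysteine. MAT1A encodes the catalytic subunit of the adult liver enzymes, whereas MAT2A encodes the catalytic subunit found in most other tissues and in many tumours, with MAT2B as its regulatory partner.

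MAT1A and MAT2A are related closely enough to ask whether a short read can tell them apart. Their coding sequences were identical at 72.5% of 1185 aligned columns, and the longest identical run was 15 bases. The 50-base window with the fewest differences is shown because it is the most demanding place for a 50-base read. It covers coding bases 85 to 134 of both genes, across the junction of exons 1 and 2. In MAT1A it spans chr10:82045303-82049095 on the minus strand, and in MAT2A chr2:85766495-85768248 on the plus strand (both GRCh37, the hg19 assembly). Capitals mark the bases that differ.
MAT1A: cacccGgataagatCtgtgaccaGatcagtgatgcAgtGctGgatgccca
MAT2A: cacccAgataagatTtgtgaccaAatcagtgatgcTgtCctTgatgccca
The 6 differences are spread over the window, so even there a read of 50 bases carries bases that separate the 2 genes. None of the 3335 windows of 50 bases in the MAT1A transcript occurred in a transcript of another annotated gene. For MAT2A, 589 of 2768 windows (21.28%) did, in GGCX, in the pseudogene MAT2AP1 or in ENSG00000258012, an annotated gene with no symbol. Reads from these windows can be counted as ambiguous or as aligned to more than 1 place, so the MAT2A counts may be partial in every library.

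AHCYL1 and AHCYL2 are the other close pair, with 78.1% identity over their aligned coding bases and a longest identical run of 21 bases. Their most similar window differs at 5 bases and is shown for the same reason. It spans chr1:110551749-110553866 in AHCYL1 and chr7:129019572-129028927 in AHCYL2, both on the plus strand and across exons 2 and 3.
AHCYL1: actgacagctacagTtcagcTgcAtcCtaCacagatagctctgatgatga
AHCYL2: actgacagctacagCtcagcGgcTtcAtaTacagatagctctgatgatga
AHCY is more distant, with 62.4% identity to AHCYL1 and 61.2% to AHCYL2. MAT2B, AHCYL1 and MTRR shared no 50-base window with another gene, AHCYL2 and MTR shared 0.12% and 0.17%, and AHCY 4.38%. CBS shared all of its windows with a second annotated copy placed on the same bases, for which the count tables hold no row.

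The libraries held 24052542 and 26629578 counts in genes with the control shRNA and 29221640 and 26760085 with the PELP1 shRNA, in 17641 to 17851 genes with a count. PELP1, the scaffold protein targeted by the shRNA, was at 176.7 ± 12 CPM (TMM-scaled counts brought to a common library size; SD, n = 2) in the control group and at 52.64 ± 4.15 CPM (SD, n = 2) in the knockdown group, 29.8% of the control level (log2 fold change −1.75 ± 0.05 SE; edgeR quasi-likelihood test, FDR = 1.54e-33). Of the 14972 genes, 28.6% were called higher and 29.5% lower at an FDR of 0.05, 58.1% in all, and scaling by library size alone moved the split to 5681 higher and 3305 lower. In 77.7% of the genes the values of the 2 groups did not overlap, and the median absolute log2 fold change was 0.26. In bulk RNA, fewer cells with a transcript and less of it per cell cannot be told apart.

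Length-scaled levels placed MAT2A at the top of the set and MAT1A at the bottom. With the control shRNA, MAT2A stood at 135.0 ± 0.666 CPM per kb of transcript (SD, n = 2), above AHCYL1 at 73.18 ± 0.105, AHCY at 65.39 ± 0.983 and MAT2B at 58.65 ± 4.15. A middle group followed, with MTRR at 16.18 ± 0.374, AHCYL2 at 8.852 ± 0.185, CBS at 8.261 ± 0.492 and MTR at 7.543 ± 0.0099. MAT1A was last at 0.5877 ± 0.0622 CPM per kb. Neighbours in this order did not overlap between libraries, the closest being AHCYL2 (8.721 in its lower library) and CBS (8.609 in its higher one). Among the 13701 protein-coding genes tested and matched to a length, 96.6% had a lower length-scaled level than MAT2A and 12.3% a lower one than MAT1A. Coding genes that did not pass the filter on low counts are not in this ranking. The order was the same with the PELP1 shRNA except that CBS, at 9.053 ± 0.216, stood above AHCYL2, at 7.757 ± 0.0354. The lengths are those of 1 annotated transcript per gene, so the order depends on that choice where levels are close.

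**Figure D1:**
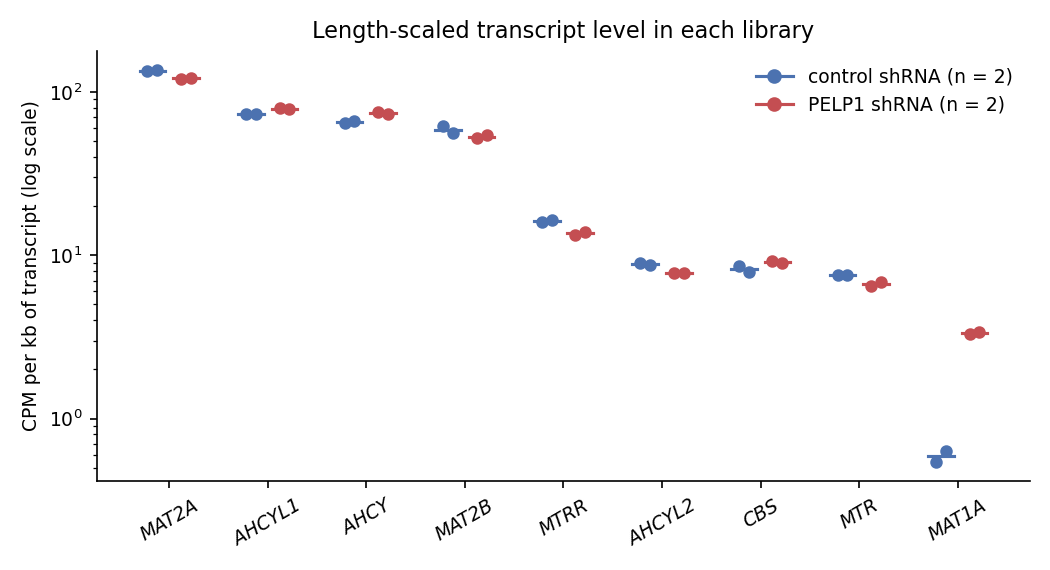
Length-scaled level (CPM per kb of transcript, log scale) of the 9 genes in each library, with control shRNA in blue and PELP1 shRNA in red; points are libraries and bars are means of 2. MAT1A is the lowest in both groups, at 0.5877 and 3.34 CPM per kb, and the other 8 genes lie close together between the groups.

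MAT1A, the liver-type catalytic subunit, lies on the minus strand of chromosome 10 (82031576 to 82049414, 9 exons). It had 43 and 55 counts with the control shRNA against 334 and 318 with the PELP1 shRNA. On the CPM scale these were 1.84 and 2.138 against 11.07 and 11.54. Both knockdown libraries were far above both control libraries, and the 2 libraries of each group lay close together. The fitted log2 fold change was 2.5 ± 0.15 (SE), or 5.65-fold. The ratio of the summed counts, 652 to 98 after scaling, was 5.66, with a 95% interval of 4.57 to 7.07 that covers counting error only. Its length-scaled level went from 0.5877 to 3.34 CPM per kb, from above 12.3% to above 32.0% of the tested coding genes. It was thus still a low transcript among them in the knockdown cells.

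MAT2A, the catalytic subunit of most non-hepatic cells, lies on the plus strand of chromosome 2 (85766291 to 85772404, 9 exons). Its level was 378.9 and 381.6 CPM with the control shRNA against 339.6 and 344.3 CPM with the PELP1 shRNA. Both knockdown libraries were below both control libraries, at 89.9% of the control level on average (log2 fold change −0.15 ± 0.04 SE). Its direction was thus opposite to that of MAT1A, and its size a small fraction of it. GGCX, the gamma-glutamyl carboxylase gene, runs on the opposite strand and overlaps 562 exonic bases of MAT2A. GGCX was also lower, at 91.4 ± 0.183 CPM against 78.4 ± 0.9 CPM (SD, n = 2; log2 fold change −0.22 ± 0.05 SE, edgeR FDR = 7.73e-05). The strand setting of the counting is not given in the sources used here, so reads from the shared bases cannot be told apart, and their part in the MAT2A value was not tested.

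MAT2B, the regulatory subunit that binds the MAT2A enzyme, lies on the plus strand of chromosome 5 (162930120 to 162946564, 7 exons). It was at 127.1 and 115.0 CPM with the control shRNA and at 108.0 and 112.0 CPM with the PELP1 shRNA. The 2 control libraries differed from each other by more than the lower of them differed from either knockdown library. The log2 fold change was −0.14 ± 0.05 (SE), and −0.07 without control replicate 1. The ratio of MAT2A to MAT2B per kb was 2.31 ± 0.177 in the control group and 2.27 ± 0.0354 in the knockdown group (SD, n = 2), within the spread of the control pair.

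The share of catalytic-subunit transcripts that came from MAT1A put the 2 isozymes on one scale. Scaled by exon length, MAT1A made up 0.403% and 0.464% of MAT1A plus MAT2A in the control libraries against 2.64% and 2.71% in the knockdown libraries. In raw counts the shares were 0.483% (exact 95% interval 0.35 to 0.65) and 0.557% (0.42 to 0.724) against 3.16% (2.83 to 3.51) and 3.24% (2.9 to 3.61). The intervals cover counting error only, and no comparison is drawn from them. MAT2A still outnumbered MAT1A in every library, by 247 and 214 to 1 per kb in the control group and by 36.9 and 35.8 to 1 in the knockdown group. The summed level of the 2 catalytic subunits was 135.1 and 136.1 CPM per kb with the control shRNA and 123.8 and 125.6 with the PELP1 shRNA. The sum was lower in both PELP1 shRNA libraries, the increment of MAT1A being smaller than the decrement of MAT2A.

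**Figure D2:**
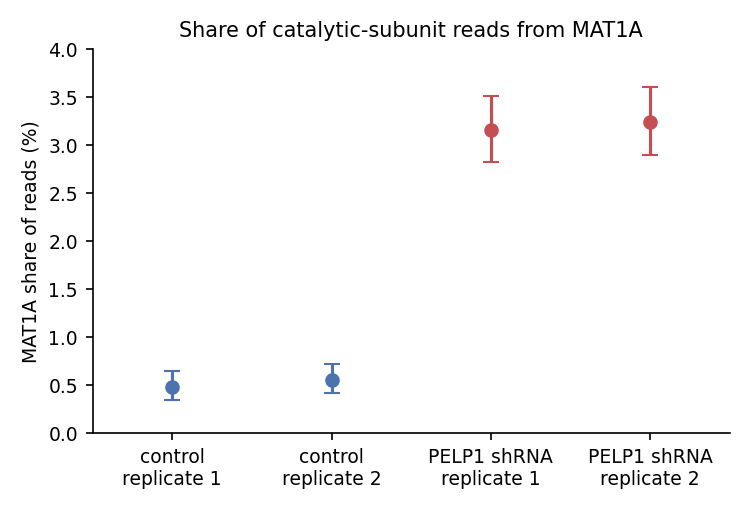
Share of MAT1A in the reads of MAT1A plus MAT2A (percent, raw counts) in each of the 4 libraries, with exact 95% intervals for counting error. The control libraries are at 0.483% and 0.557% and the PELP1 shRNA libraries at 3.16% and 3.24%.

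The hydrolase and its relatives did not share a direction. AHCY, which removes S-adenosylhomocysteine, lies on the minus strand of chromosome 20 (32868074 to 32899608, 10 exons). It was at 139.1 and 142.1 CPM in the control libraries, against 162.4 and 158.0 CPM in the knockdown libraries, 114% of the control level (log2 fold change 0.19 ± 0.04 SE). AHCYL1, or IRBIT, an AHCY-like protein that binds inositol trisphosphate receptors, lies on the plus strand of chromosome 1 (110527387 to 110566364, 17 exons). It was at 288.3 and 288.8 CPM against 313.0 and 309.8 CPM, 108% of the control level (log2 fold change 0.11 ± 0.04 SE). Both were higher in each knockdown library than in either control library.

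AHCYL2, the second AHCY-like gene, lies on the plus strand of chromosome 7 (128864871 to 129070052, 17 exons) and went the other way. It was at 45.35 and 44.03 CPM with the control shRNA and at 39.04 and 39.29 CPM with the PELP1 shRNA, 87.6% of the control level (log2 fold change −0.19 ± 0.06 SE). The groups did not overlap. The ratio of AHCYL1 to AHCYL2 per kb was 8.14 and 8.4 in the control libraries against 10.3 and 10.1 in the knockdown libraries. AHCY per AHCYL1 was 0.893 ± 0.012 and 0.944 ± 0.012 (SD, n = 2).

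The remethylation enzymes were both lower with the PELP1 shRNA. MTR, the cobalamin-dependent methionine synthase, lies on the plus strand of chromosome 1 (236958560 to 237084578, 33 exons). It was at 79.63 and 79.48 CPM in the control libraries, against 68.54 and 72.02 CPM in the knockdown libraries, 88.3% of the control level (log2 fold change −0.18 ± 0.05 SE). MTRR, the reductase that restores the cobalamin of MTR, lies on the plus strand of chromosome 5 (7851299 to 7906138, 15 exons). It was at 51.64 and 53.36 CPM against 43.42 and 45.17 CPM, 84.4% of the control level (log2 fold change −0.25 ± 0.06 SE). In both genes the groups did not overlap. MTRR per MTR was 2.15 ± 0.0495 and 2.05 ± 0.0141 per kb (SD, n = 2).

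CBS, the first enzyme of transsulfuration, lies on the minus strand of chromosome 21 (44473301 to 44497053, 17 exons). It was at 21.48 and 19.74 CPM with the control shRNA and at 22.97 and 22.2 CPM with the PELP1 shRNA (log2 fold change 0.13 ± 0.08 SE). The gap between the nearest libraries of the 2 groups was smaller than the gap between the 2 control libraries.

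Apart from MAT1A, all of these differences were small. The 8 other genes lay between 84.4% and 114% of their control level, all below the median absolute log2 fold change of 0.26 among all genes. In the fit across all genes, 3 of the 9 were past the FDR threshold as higher (MAT1A, AHCY, AHCYL1), 5 as lower (MAT2A, MAT2B, AHCYL2, MTR, MTRR) and CBS was not, beside 28.6% higher and 29.5% lower among all genes. Groups did not overlap in 4 genes with higher and 5 with lower values, beside 39.0% and 38.7% of all genes. Since the comparison that gave these counts also entered the choice of genes, nothing is read from them. The signs, 4 above and 5 below 0, were the same in all 14 fits tried, but the calls were not. They numbered 4 higher and 1 lower with library size alone, 2 and 2 without PELP1 shRNA replicate 1, and 1 and 0, MAT1A alone, when a biological variation of 10% was assumed in place of the 2.99% estimated from the duplicates.

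**Figure D3:**
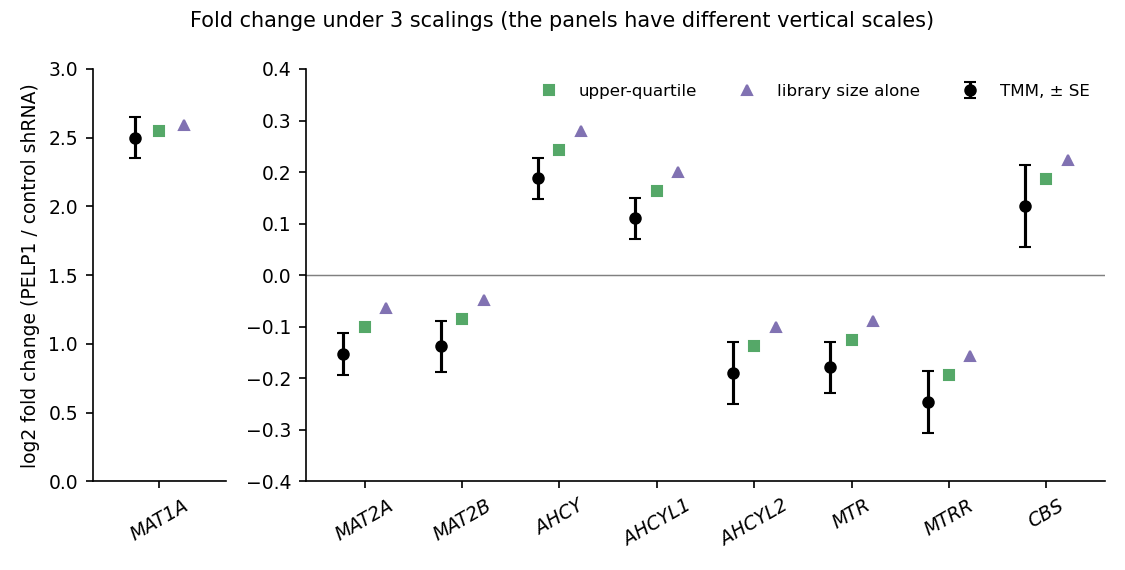
Log2 fold change of each gene, PELP1 shRNA over control shRNA (n = 2 each), with TMM scaling (circles, ± SE), upper-quartile scaling (squares) and library size alone (triangles); MAT1A has a panel with its own vertical scale. MAT1A lies at 2.5 with TMM scaling, the 8 other genes lie between −0.25 and 0.19, and no gene crosses 0 under another scaling.

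Around these 9 genes, 156 others from routes that feed, drain, use or regulate the cycle, or related to those routes, were listed in 9 groups. Of the 140 tested, 41 were higher, 49 were lower and 50 did not pass (64.3% called, beside 58.1% of all genes), with a median log2 fold change of 0.01, beside 0.0 for all genes. Library size alone gave 56 higher and 34 lower. With TMM scaling, the 3 largest changes among the 140 were those of SLC29A2, METTL7B and METTL7A (log2 fold changes 1.33, 1.26 and 1.13), all of them upward. The genes named below from each group are those with the largest changes, together with some named in any case for their role.

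**Figure D4:**
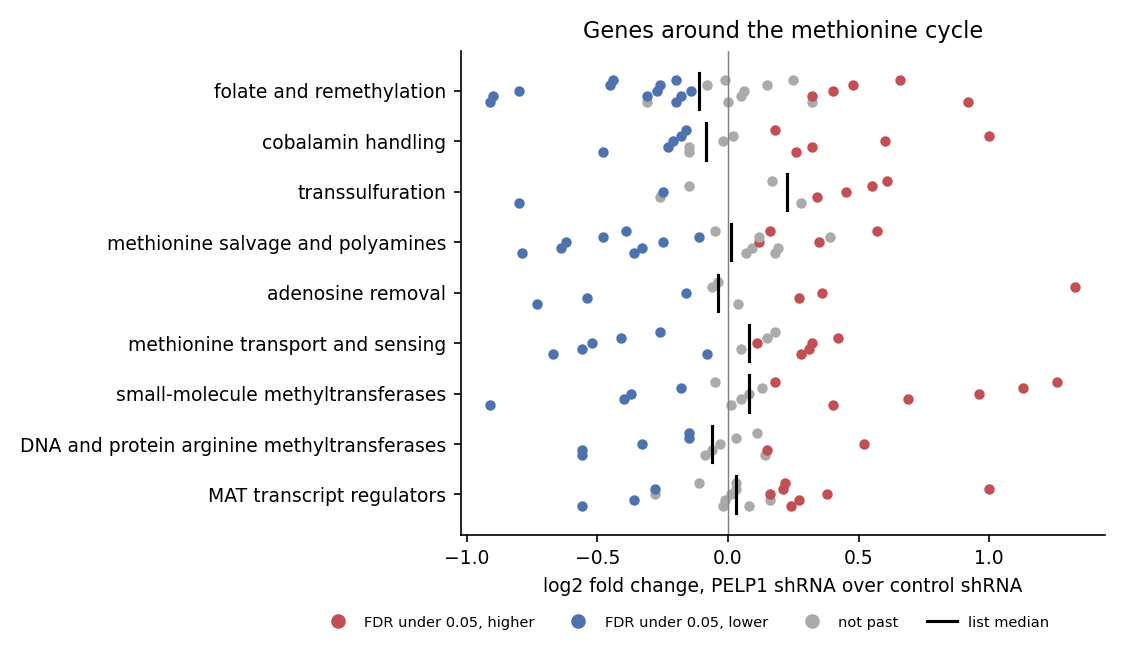
Log2 fold change (PELP1 shRNA over control shRNA) of the 140 tested genes around the methionine cycle in 9 groups; each point is a gene, red where higher and blue where lower at an FDR under 0.05, grey otherwise, and black bars are group medians. The medians run from −0.11 for folate and remethylation to 0.23 for transsulfuration.

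In the folate and remethylation group, 5 of 26 tested genes were higher and 12 lower, with a median log2 fold change of −0.11. FPGS, which retains folates in the cell by adding glutamates, fell from 110 ± 4.86 to 59.3 ± 4.17 CPM (n = 2, ± SD), a log2 fold change of −0.9 ± 0.05 (SE; edgeR FDR = 1.01e-23). SHMT2, the mitochondrial serine hydroxymethyltransferase, fell from 219 to 183 CPM (edgeR FDR = 7.06e-08, 0.173 with an assumed variation of 10%). MTHFD2 was at 80.9 and 73.3 CPM (edgeR FDR = 0.0133), a call lost with upper-quartile scaling (FDR = 0.127), library size alone (0.391), an assumed variation of 10% (0.518), DESeq2 (0.0607), without control replicate 1 (0.0624) and without PELP1 shRNA replicate 1 (0.125). SARDH fell from 1.89 to 1.01 CPM (edgeR FDR = 0.00297, DESeq2 0.0697). ALDH1L1 was at 0.725 and 1.39 CPM (edgeR FDR = 0.011), and its call was lost with DESeq2 (0.134), without control replicate 1 (0.178) and without PELP1 shRNA replicate 2 (0.0547). BHMT, the betaine-dependent alternative to MTR in liver, had 1 count in the 4 libraries together.

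Genes listed around the handling of cobalamin, the cofactor of MTR, numbered 5 higher and 5 lower of 14 tested. MMAB, which makes the adenosyl form of cobalamin in mitochondria, rose from 24.0 ± 2.08 to 48.0 ± 0.924 CPM (n = 2, ± SD), a log2 fold change of 1.0 ± 0.07 (SE; edgeR FDR = 4.73e-20). TCN2, the plasma carrier transcobalamin, rose from 5.12 to 7.74 CPM (edgeR FDR = 0.000122). PRDX1, a peroxiredoxin encoded beside the cobalamin gene MMACHC, fell from 460 to 330 CPM (edgeR FDR = 1.63e-18).

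Transsulfuration and sulfide oxidation, the branch that CBS opens, had the highest group median, 0.23, with 4 of 10 tested genes higher and 2 lower. TST, a sulfurtransferase, rose from 18.3 to 28.0 CPM (edgeR FDR = 1.51e-09) and SUOX, sulfite oxidase, from 20.1 to 29.6 CPM (edgeR FDR = 7.19e-09). SQRDL, the sulfide-quinone oxidoreductase, fell from 37.3 to 21.3 CPM (edgeR FDR = 3.01e-07). CTH, the enzyme after CBS, was at 5.48 ± 0.665 and 6.65 ± 0.628 CPM (SD, n = 2; edgeR FDR = 0.0751). With all libraries kept, CTH passed with library size alone (edgeR FDR = 0.0155) and upper-quartile scaling (edgeR FDR = 0.0322). It also passed with crossed replicate numbers as a block (edgeR FDR = 0.0495, added after seeing the data). Leaving out each library in turn, its log2 fold change ran from 0.162 (without control replicate 1) to 0.412 (without control replicate 2), so the call depends on the libraries kept.

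Polyamine synthesis, which consumes SAM, and methionine salvage held 4 higher and 9 lower of 20 tested genes. ODC1, the rate-limiting ornithine decarboxylase, fell from 571 ± 13.5 to 367 ± 8.18 CPM (n = 2, ± SD), a log2 fold change of −0.64 ± 0.04 (SE; edgeR FDR = 1.86e-24). SRM, spermidine synthase, fell from 180 to 117 CPM (edgeR FDR = 6.59e-20) and SAT1, which acetylates polyamines for export, from 15.9 to 9.17 CPM (edgeR FDR = 9.75e-10). AMD1, which decarboxylates SAM for this pathway, went slightly the other way, from 195 to 212 CPM (edgeR FDR = 0.00861, 0.0705 without PELP1 shRNA replicate 1 and 0.601 with an assumed variation of 10%).

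Of 9 genes of adenosine and related purine handling, adenosine being the other product of AHCY, 3 were higher and 3 lower. ADK, adenosine kinase, fell from 45.0 to 31.0 CPM (edgeR FDR = 1.96e-10), and PNP, purine nucleoside phosphorylase, from 238 to 143 CPM (edgeR FDR = 6.48e-25). SLC29A2, an equilibrative nucleoside transporter, rose from 5.11 ± 0.517 to 12.9 ± 0.45 CPM (n = 2, ± SD), a log2 fold change of 1.33 ± 0.12 (SE; edgeR FDR = 3.52e-15). Methionine transport and sensing had 5 higher and 6 lower of 14 genes. SLC7A5 and SLC3A2, the light and heavy chains of the LAT1 transporter that carries methionine, fell from 176 to 111 CPM (edgeR FDR = 6.19e-21) and from 207 to 140 CPM (edgeR FDR = 1.03e-18). C7orf60, now called BMT2 or SAMTOR, a SAM sensor of the mTORC1 pathway, fell from 18.0 to 12.5 CPM (edgeR FDR = 2.33e-06).

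Among the methyltransferases that use SAM, those acting on small molecules had 6 higher and 4 lower of 15 tested genes. NNMT, which methylates nicotinamide, rose from 72.1 ± 0.403 to 140 ± 2.8 CPM (n = 2, ± SD), a log2 fold change of 0.96 ± 0.05 (SE; edgeR FDR = 2.36e-27). METTL7B rose from 2.94 to 7.08 CPM (edgeR FDR = 1.25e-10) and METTL7A from 1.15 to 2.5 CPM (edgeR FDR = 8e-05). GNMT, the glycine methyltransferase abundant in liver, had 2 to 7 counts a library and was not tested. DNA and protein arginine methyltransferases had 2 higher and 5 lower of 13. PRMT2 fell from 76.3 to 51.8 CPM (edgeR FDR = 5.8e-14) and PRMT7 from 23.4 to 15.9 CPM (edgeR FDR = 1.08e-07), while TRDMT1, which methylates transfer RNA, rose from 11.5 to 16.4 CPM (edgeR FDR = 4.3e-06). DNMT1, the maintenance DNA methyltransferase, was at 581 and 524 CPM (edgeR FDR = 0.000183, 0.131 with library size alone and 0.48 with an assumed variation of 10%).

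Genes listed around the control of MAT transcripts and promoters had 7 higher and 3 lower of 19 tested. A direct action on MAT genes is not claimed for each of them. CEBPA, a transcription factor of the liver and adipocytes, rose from 2.33 ± 0.216 to 4.68 ± 0.251 CPM (n = 2, ± SD), a log2 fold change of 1.0 ± 0.18 (SE; edgeR FDR = 2.27e-06). LIN28B, an RNA-binding protein, rose from 23.4 to 30.5 CPM (edgeR FDR = 8.8e-06), and MAFG, a small MAF factor, fell from 115 to 77.6 CPM (edgeR FDR = 6.74e-16). METTL16, which controls splicing of the last MAT2A intron in response to SAM, was at 60.4 ± 2.11 and 60.8 ± 0.728 CPM (SD, n = 2; log2 fold change 0.01 ± 0.05 SE, edgeR FDR = 0.89). HNF4A, a hepatocyte nuclear receptor, had at most 2 counts a library. Gene counts do not separate spliced from intron-retaining MAT2A transcripts.

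Because MAT1A is best known from liver, 24 hepatocyte markers were read in the same libraries. Of the 24, 9 had no count in any library (ALB, APOA2, APOC3, APOH, TTR, FGA, FGB, TAT and G6PC), and 4 reached a mean of 1 CPM. The summed level of the 24 was 55.4 and 54.6 CPM with the control shRNA and 41.1 and 38.9 CPM with the PELP1 shRNA. SERPINA1 and CPS1 made up most of each sum, so the lower sum is mainly theirs. In control replicate 1 they were at 26.1 and 23.5 CPM, and in PELP1 shRNA replicate 1 at 15.6 and 17.9 CPM. Of 7 tested, CYP2E1 was higher, with 17 and 39 counts against 76 and 78 (log2 fold change 1.23 ± 0.25 SE, edgeR FDR = 3.23e-05). SERPINA1 fell from 25.4 to 15.4 CPM (edgeR FDR = 2.52e-11) and CPS1 from 23.6 to 17.2 CPM (edgeR FDR = 2.86e-06). The cells are named as Daoy by the sample titles. Of 14 markers of the granule lineage and hedgehog-type medulloblastoma, also read, 9 reached a mean of 1 CPM. The 14 summed to 324 and 330 CPM in the control libraries against 288 and 296 CPM in the knockdown libraries, and 4 of 11 tested were higher and 3 lower. SFRP1, a Wnt inhibitor, made up 139 to 149 CPM of each sum. HHIP, a hedgehog-binding target gene of the pathway, fell from 20.4 ± 0.887 to 3.34 ± 0.619 CPM (n = 2, ± SD), a log2 fold change of −2.61 ± 0.12 (SE; edgeR FDR = 9.62e-29). GLI2 (edgeR FDR = 2.16e-13) and PTCH1 (3.42e-09) were the other lower genes. The higher ones were GLI1 (edgeR FDR = 0.0332), PAX6 (1.96e-07), EN2 (1.01e-05) and ZIC2 (0.00877). GLI1 was low in every library, with 11 and 24 counts against 40 and 32. ATOH1, BARHL1 and NEUROD1, which mark granule cell precursors or neurons, were near 0, with at most 6 counts a library. Of 5 leukocyte markers, which summed to 59.1 to 61.9 CPM, CD68 alone, a lysosomal protein abundant in macrophages, made up 57.5 to 58.6 CPM. LYZ, with 39 and 11 counts against 16 and 7, was called lower although the groups overlap (edgeR FDR = 0.0422). PTPRC had 5 to 9 counts a library and CD3E 0 to 5.

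The genes nearest to MAT1A were read to see how its surroundings moved. Of the 10 closest genes with a row, 5 on each side, 6 were tested, 5 were higher and 1 lower, beside 28.6% and 29.5% of all genes. DYDC2, 55.1 kb away, had 7 and 4 counts with the control shRNA against 39 and 19 with the PELP1 shRNA (log2 fold change 2.14 ± 0.46 SE, edgeR FDR = 6.37e-05). It was low in both groups, and the knockdown libraries differed from each other by more than the lower of them differed from either control. DYDC1, at 46.4 kb and overlapping DYDC2 on the opposite strand, had at most 1 count a library and was not tested. On the same side, C10orf58 (now PRXL2A) rose from 35.5 to 48.6 CPM (edgeR FDR = 6.23e-09) and TSPAN14, a tetraspanin, from 114 to 140 CPM (edgeR FDR = 5.75e-08).

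On the other side, ANXA11, an annexin 66.2 kb away, was at 90.8 ± 8.12 and 104 ± 1.82 CPM (SD, n = 2; log2 fold change 0.2 ± 0.05 SE, edgeR FDR = 0.000438, 0.0845 without control replicate 1). C10orf57 (now TMEM254) was at 10.9 and 13.4 CPM (edgeR FDR = 0.0115), a call lost with DESeq2 (0.114), without control replicate 1 (0.0807) and without PELP1 shRNA replicate 1 (0.277). The pseudogene MBL1P was at 0.999 and 0.522 CPM (edgeR FDR = 0.0239), a call lost with DESeq2 (0.194), without either control replicate (0.111 and 0.0866) and without PELP1 shRNA replicate 1 (0.158). Apart from DYDC2, no tested neighbour approached the size of the MAT1A difference. With an assumed biological variation of 10%, 2 neighbours stayed higher and MBL1P stayed lower. The calls of ANXA11, C10orf57 and TSPAN14 were lost in that setting.

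**Figure D5:**
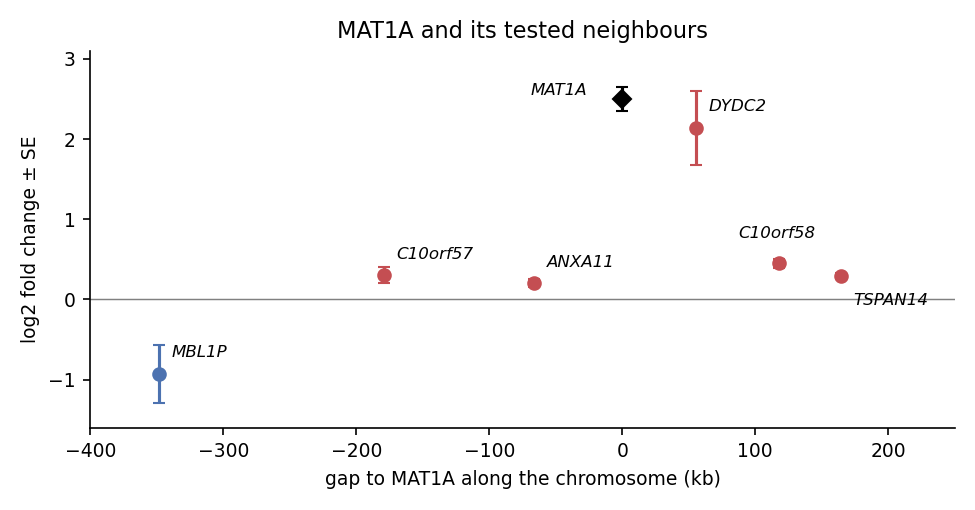
Log2 fold change ± SE (PELP1 shRNA over control shRNA, n = 2 each) of MAT1A (diamond) and its 6 tested neighbours against their gap to MAT1A in kb, negative toward lower coordinates; red is higher and blue lower. DYDC2, at 2.14, lies nearest to MAT1A in size, and the 4 other higher genes lie between 0.2 and 0.45.

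Genes with the pattern most like that of each catalytic subunit were found among 13607 genes by the distance of their mean-centred log2 CPM over the 4 libraries. Closest to MAT1A were BDKRB2 (distance 0.094), SULT1C2 (0.164), LOC728192 (0.191), PLIN4 (0.198) and MACC1 (0.199). BDKRB2, the bradykinin B2 receptor, was at 9.93 ± 0.91 and 52.4 ± 0.567 CPM (SD, n = 2), and MACC1, a regulator of MET, at 48.0 ± 0.955 and 252 ± 1.34 CPM. Their log2 fold changes ran from 2.33 for PLIN4, a lipid droplet protein, to 2.46 for LOC728192. Closest to MAT2A were CCAR1 (0.00716), ZNF706 (0.00949), SLC39A6 (0.0101), HOXD13 (0.0117) and PHF8 (0.0128), at log2 fold changes of −0.14 to −0.16. With 4 libraries in 2 groups, likeness amounts to a similar fold change and a similar spread within the pairs, and many genes lie close to the MAT2A pattern.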

How the data were processed

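Reads of 50 bases (single-end, TruSeq total RNA kit per the labels' protocols) had been mapped with TopHat2 2.0.8b (hg19) and assigned to genes with HTSeq, per the submitters' processing notes. The deposited values are raw counts per gene symbol. The annotation, HTSeq version and strand setting were not given in the sources used here. Rows naming no gene were left out. They were 29.38 to 30.82% (aligned to more than 1 place), 8.831 to 9.076% (no feature) and 0.5785 to 0.6021% (ambiguous) of each file.

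Counts were tested with edgeR 4.0.16 (R 4.3.3; quasi-likelihood F test, robust, TMM, filterByExpr, two-sided, Benjamini-Hochberg over 14972 genes), with shRNA group as the only term. Replicate pairs differed by more than counting noise (chi-square per degree of freedom 2.469 and 2.374). Alternatives were DESeq2 1.42.0, limma 3.58.1 voom, other scalings and filters, a replicate block, an assumed variation of 10% and leaving out each library. The fit was tested on simulated data. Gene models came from GENCODE 44 lifted to GRCh37, with 85.1% of rows matched, older symbols through RefSeq.

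The 9 genes and all gene lists were chosen with earlier results of these data known. From each list of genes around the cycle, up to 3 were named: the largest changes that passed the FDR threshold in genes averaging 1 CPM or more, with groups that did not overlap. SHMT2, MTHFD2, BHMT, GNMT, NNMT, CTH, MTAP, AMD1, ODC1, DNMT1, METTL16, HNF4A and CEBPA were named in any case (1 further gene is not reported here), as were the nearest neighbour of MAT1A on each side, neighbours past the threshold, and the 5 genes most alike to MAT1A and to MAT2A (Euclidean distance, prior count 2, mean of at least 1 CPM). Other genes were named for an overlap or as markers.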

Additional observations from a re-analysis of the deposited data

How the results depend on the processing

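No fold change of the 9 genes or PELP1 reversed under any setting. Upper-quartile scaling and library size alone moved the median of all genes by 0.053 and 0.09 (log2). They gave MAT2A −0.1 and −0.0631, AHCY 0.242 and 0.279, AHCYL1 0.163 and 0.2, AHCYL2 −0.137 and −0.1, MTR −0.126 and −0.0894, MTRR −0.193 and −0.156, MAT2B −0.0846 and −0.0478, and CBS 0.187 and 0.224. With TMM scaling MAT2B was at −0.138 and CBS at 0.134, and under both other scalings 4 of the 9 genes were called higher in place of 3. A filter of 5 CPM gave MAT2A −0.137 and AHCYL1 0.126. Coding length, or raw counts, gave a MAT1A share of 0.52% (control) and 3.2% (PELP1 shRNA). An assumed variation of 10% left 2187 genes higher and 2176 lower, and 19 and 23 around the cycle. Of the neighbours of MAT1A it left 2 higher and 1 lower (added after seeing the data). DESeq2 and the 5 CPM filter left 0 neighbours lower. Hepatocyte markers called higher numbered 2 with no filter and 0 with the 5 CPM filter, under which fewer genes were tested. Where not named, the cause was not tested.

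Leaving out each library in turn (the lone library is assumed to vary like the other group) gave 3612 to 3726 genes higher and 3804 to 4031 lower. Around the cycle it gave 33 to 40 and 41 to 45, for hepatocyte markers 1 to 2 and 2, and for neighbours 3 to 5 and 0 to 1. The fold changes ran from 2.4 to 2.62 for MAT1A, −0.164 to −0.142 for MAT2A, −0.209 to −0.0663 for MAT2B, 0.17 to 0.207 for AHCY, 0.104 to 0.116 for AHCYL1, −0.211 to −0.171 for AHCYL2, −0.216 to −0.142 for MTR, −0.276 to −0.216 for MTRR, 0.0733 to 0.193 for CBS and −1.83 to −1.67 for PELP1. MAT1A shares ran from 0.403% to 0.464% and from 2.64% to 2.71%. A hepatocyte marker was added without PELP1 shRNA replicate 2. Without control replicate 1, control replicate 2 or PELP1 shRNA replicate 1, no neighbour was called lower.

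With the replicate number as a block, 4010 genes were higher and 4151 lower, 41 and 44 around the cycle, and the log2 fold change of MAT1A was 2.5. The labels do not say that numbers mark pairs, and same-numbered libraries' deviations correlated at −0.154. With crossed numbers, a pairing added after seeing the data, 4565 genes were higher and 4719 lower, 45 and 51 around the cycle. MAT1A rested on 43 and 55 control counts, which limits its fold change more than that of any other of the 9 genes.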

Other observations

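MTAP, the enzyme that recycles the methylthioadenosine left by polyamine synthesis into methionine, was the least detected gene of the salvage route among those named for their role in it. It had 2, 0, 3 and 0 counts in the 4 libraries, the PELP1 shRNA libraries coming last. Its neighbours on chromosome 9 (GRCh37, MTAP at 21802635 to 21937650) were read after this was seen. CDKN2A had 1 count in every library, CDKN2B 1, 3, 2 and 2, and CDKN2B-AS1 0, 0, 0 and 1. IFNA13, IFNA2, IFNA8, IFNA1, IFNE and DMRTA1 had none, and ELAVL2 had 1 in PELP1 shRNA replicate 1. Genome copy number was not analysed here.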
